A study of Homo sapiens with 3 samples.

Results

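The genes described here are 8 genes of Schwann cells and of the glia that derive from the neural crest: LGI4, PMP22, ERBB3, NGFR, NES, GFAP, MBP and FOXD3. They were taken by name, as every probe on the arrays that carries one of these symbols, which gave 14 probes for the 8 genes out of 41000 probes and 17047 genes with a RefSeq NM_ accession. Gene expression was measured in 1205Lu, a human metastatic melanoma line that was derived from a lung metastasis of a WM793 xenograft in a mouse. The original monolayer (OM) had been kept for 14 days in RPMI-1640 with 10% FCS, the melanoma bodies (MB), adherent 3D aggregates, for 14 days in hESC medium (DMEM F-12 with 20% Knock Out serum replacement), and the new monolayer (NM) for 14 days as bodies in hESC medium and then for 10 days in RPMI-1640 with 10% FCS, with the remaining bodies taken off before RNA was prepared. MB therefore differs from OM in both its medium and its 3D growth, and these cannot be told apart. Each population was hybridised to 1 single-colour Agilent array, so there are no replicate cultures and no test between the populations, and precision is set by having a single array of each.

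Schwann cells are the glia of peripheral nerves and, like melanocytes, arise from the neural crest, in part through a shared Schwann cell precursor. Axons steer the Schwann lineage with neuregulin, which binds ERBB3 and signals through its partner ERBB2, and with neurotrophins, which bind NGFR. Later steps need the secreted protein LGI4, and the mature cell then wraps the axon in a myelin sheath whose proteins include PMP22 and MBP. Immature and non-myelinating Schwann cells contain the intermediate filament proteins nestin (NES) and GFAP, and FOXD3 is a transcription factor of neural crest cells before they take a fate.

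Among the 14 probes, 10 stood well above background in at least 1 population and 9 in all 3, with 0 saturated spots. LGI4, PMP22, NGFR, NES and FOXD3 have 1 probe each, while ERBB3, GFAP and MBP have 3 each, which did not all give the same result. Each gene is represented by its probe with an NM_ accession and the highest mean signal, and all 8 of these were well above background on all 3 arrays. The members whose probes decide what is seen are shown here by 30 of the 60 bases of each probe, 5′ to 3′, in lower case. The capitals in the GFAP probe mark AATAAA, the motif that precedes the end of many mRNAs and that 4.16% of all 41000 probes hold.
LGI4: aaagcaccgaggggttgatggcattccttt
ERBB3, NM_001982: gctcttgactacttggaactaggctcttat
ERBB3, U88357: attggccaaaactttcctatgtggagctga
ERBB3, U88360: aaattatagccgaggaggtgtctgtgtgac
GFAP, NM_002055, bright: cgctgaggaaaAATAAAgacaaatgctgcg
GFAP, NM_002055, at background: attctaggtagtgccctattttacaattgt
MBP, NM_001025100: cttcctctgtataagcgatacatttgtaaa
MBP, NM_002385: aaggccagagaccaggatttggctacggag

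Signals are given in arbitrary units (a.u.) as the scanner software reported them, each ± the error that the software gave for the spot, which includes a multiplicative error of 10%. Ratios were taken after each array was divided by its mean of GAPDH, ACTB and HSP90AA1, which stood on MB at 0.978 and on NM at 0.877 times the OM value, and the ± after a log2 ratio carries the same spot errors forward. These errors are technical and leave out the variation between cultures. Probes printed in 10 spots had an SD of the log2 ratio of MB to OM between single spots of 0.20 below 100 a.u., 0.07 from 100 to 1000 a.u. and 0.03 above that. In this bulk RNA, fewer cells that express a gene and less of its RNA per cell cannot be told apart.

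LGI4, ERBB3 and NGFR were higher in MB than in OM by 2-fold or more, and GFAP was 2-fold or more lower. These are 3 of 8 members higher, where 6.61% of all 13641 genes measured were, and 1 of 8 lower, where 4.11% were. With the threshold of the study, 5-fold and a brighter signal over 100 a.u., LGI4 and ERBB3 passed between MB and OM, as did 1.57% of all genes in either direction. The paper had already reported LGI4 as upregulated in MB from these same arrays, and by qRT-PCR of OM and MB RNA. The member counts given here therefore describe the members and are no test of enrichment. ERBB3 missed 5-fold there with spike-in scaling (4.53-fold) and with 75th percentile scaling (log2 2.31). In NM against OM, NGFR and MBP were 2-fold or more higher and ERBB3 and NES lower, which is 2 of 8 members each way beside 5.10% of genes higher and 3.10% lower. At 5-fold, 0 of 8 members and 0.743% of genes passed between NM and OM, while NGFR passed with quantile normalization (log2 2.37) and with the geometric mean of the housekeeping genes (2.35). Between MB and NM, LGI4, ERBB3 and NES were higher in MB and GFAP and MBP lower, beside 10.7% and 9.47% of genes, and at 5-fold LGI4 and ERBB3 passed, beside 2.81% of genes. LGI4 missed 5-fold there under 6 of the alternatives, among them 75th percentile scaling (log2 2.28).

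**Figure D1:**
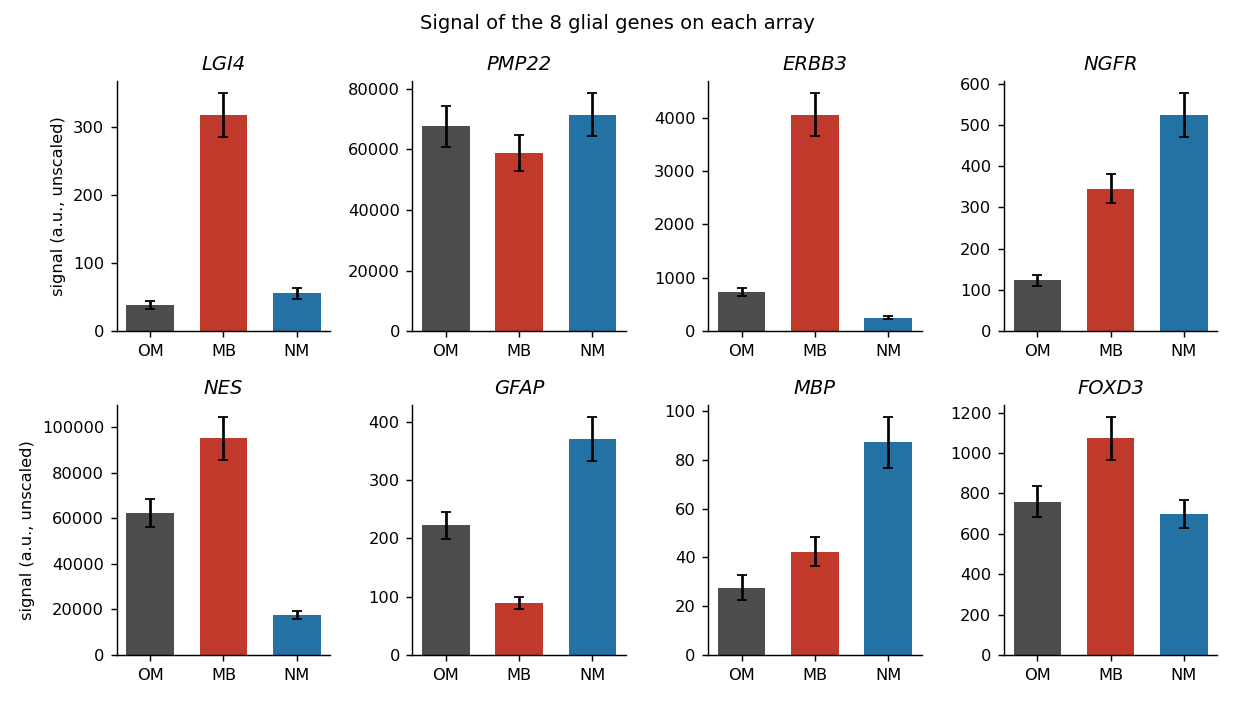
Unscaled signal (a.u., linear axis from 0, a scale of its own for each gene) of the 8 genes on the OM, MB and NM arrays, 1 bar per array with the scanner software's error for the spot. LGI4 reached 319 a.u. and ERBB3 4055 a.u. on MB, each far above both monolayers, while NGFR, GFAP and MBP were highest on NM.

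The members did not move as a group. Their median log2 ratio was 0.65 for MB over OM, where the median over all genes was 0.14, and the single members lay between -1.28 and 3.07. For NM over OM the medians were 0.49 and 0.11, and for MB over NM they were 0.02 and 0.04. Most members differed more between arrays than the median gene, in either direction: the median absolute log2 ratio of MB to NM was 1.70 over the members and 0.47 over all genes. Between the highest and the lowest array 6 of the 8 differed 2-fold or more, as did 22.2% of the 12465 genes well above background on all 3 arrays. PMP22 and FOXD3 were the other two, and both differed less than the median gene.

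The order of the arrays divided the members into 4 pairs. LGI4 and FOXD3 were lowest on OM and highest on MB, ERBB3 and NES lowest on NM and highest on MB, NGFR and MBP lowest on OM and highest on NM, and PMP22 and GFAP lowest on MB and highest on NM. In the same sequence, these orders held 18.6%, 26.6%, 16.6% and 24.9% of all genes. The place of FOXD3 rests on a difference between NM and OM that is within its error and that turned with no scaling, 75th percentile scaling and spike-in scaling. For PMP22, the difference between MB and OM was also within its error (log2 -0.17 ± 0.20). Its sign held under all alternatives that give the ratio. No member was highest on OM, the highest array for 13.3% of all genes.

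**Figure D2:**
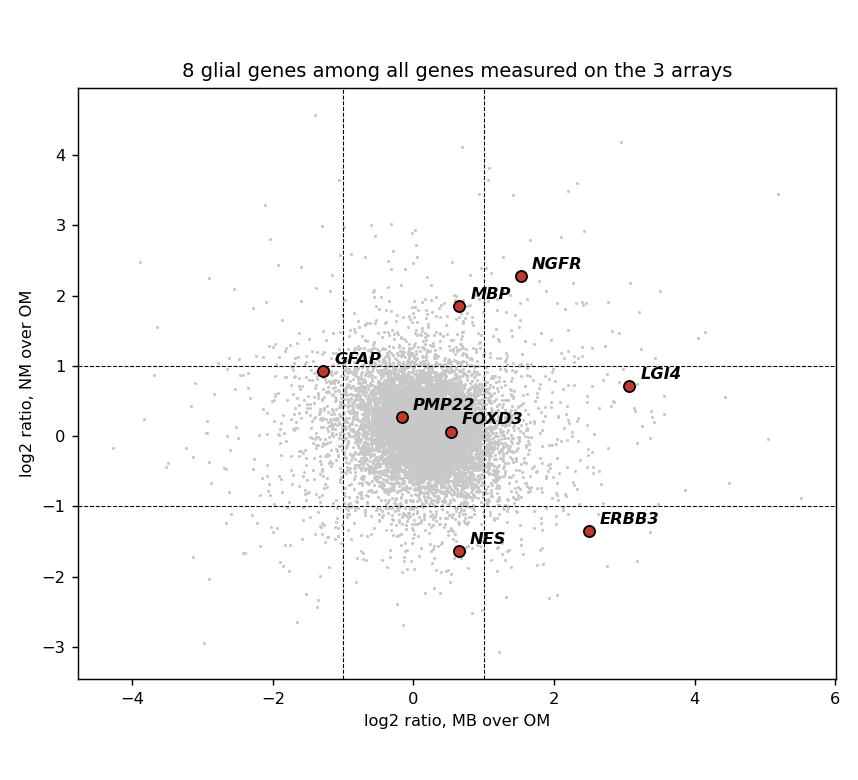
Log2 ratio of MB over OM (x) against NM over OM (y) for the 12465 genes well above background on all 3 arrays (grey), with the 8 members in red and dashed lines at 2-fold. Both axes share the OM array. LGI4 lies far to the right at 3.07, ERBB3 to the lower right, NGFR and MBP at the top, NES at the bottom, and PMP22 and FOXD3 inside the 2-fold lines.

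LGI4 is a secreted leucine-rich repeat protein that Schwann cells need for myelination, and it binds ADAM22 on the cell surface. Its probe (hg17 chromosome 19, 40307492 to 40307551, minus strand) gave 38.7 ± 5.75 a.u. in OM, 319 ± 32.1 in MB and 55.5 ± 8.14 in NM. Only the MB signal stood clear of the low range, as the lowest signals well above background were 20.9 a.u. on OM and 29.1 on NM. LGI4 was 8.41-fold higher in MB than OM (log2 3.07 ± 0.26) and 5.15-fold higher in MB than NM (2.36 ± 0.26), and 51 of 13641 genes had a ratio of MB to OM as high as this, LGI4 included. NM lay 1.63-fold above OM (0.71 ± 0.30), so the new monolayer was nearer to OM than to MB. Because the OM and NM signals were low, these folds depend on the background: without background subtraction MB over OM came to a log2 ratio of 2.04, and with normexp correction to 1.93, or 3.82-fold. The spots around the LGI4 spot gave no such difference, as 2 of the 29 measured within 4 rows and 2 columns differed 2-fold and their median log2 ratio was 0.14.

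Of the partners of LGI4, ADAM22 was also highest in MB, but by less than 2-fold. It read 264 a.u. in OM, 438 in MB and 249 in NM, a log2 ratio of MB to OM of 0.76, and its second measured probe gave 0.62. ADAM23, a related receptor of LGI proteins, was 2-fold or more lower in MB, at 4661, 1899 and 3779 a.u. (log2 MB over OM -1.26), and ADAM11 read 132, 105 and 110 a.u. (-0.30). In the LGI family itself, LGI2 was highest on NM, at 533, 541 and 1446 a.u. (log2 NM over OM 1.63), LGI3 read 115, 122 and 110 a.u., and LGI1 was at background on every array. Among these 6 genes, 5 could be measured between MB and OM, with 0 higher and 1 lower by 2-fold, where 6.61% and 4.11% of all genes were.

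ERBB3 is the receptor that binds neuregulin on Schwann cells and their precursors, and it lacks a fully active kinase of its own. Its NM_001982 probe (chromosome 12, 54782427 to 54782486, plus strand) gave 737 ± 73.9 a.u. in OM, 4055 ± 406 in MB and 253 ± 26.2 in NM. MB was therefore the highest array and NM the lowest, well below OM. ERBB3 was 5.63-fold higher in MB than OM (log2 2.49 ± 0.20), 2.55-fold lower in NM than OM (-1.35 ± 0.21) and 14.4-fold higher in MB than NM (3.85 ± 0.21). Only 14 of 13147 genes, ERBB3 among them, had a ratio of MB to NM as high.

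The other ERBB3 probes were designed on the clone sequences U88357 and U88360, which the array lists with a partial coding sequence, and lie upstream on the same strand, within 13447 bases of the first. Whether they read the same ERBB3 transcripts was not analysed here. The U88357 probe (54768980 to 54769039) read 82.0 a.u. in OM, 174 in MB and 58.1 in NM, a log2 ratio of MB to OM of 1.11 ± 0.22 and of NM to OM of -0.31 ± 0.26. The U88360 probe (54773897 to 54773956) read 27.7 a.u. in OM, 182 in MB and 6.72 in NM, where it was not well above background. Its log2 ratio of MB to OM was 2.75 ± 0.33, and MB was at least 5.61-fold higher than NM. All 3 probes were thus brightest on MB. They differed in size, and with the median over the probes in place of the brightest one, NM over OM came to -0.83, less than 2-fold, and MB over NM to at least 2.49, a bound because it is the value of the U88360 probe.

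Of the ERBB3 partners, ERBB2, the kinase that ERBB3 pairs with, hardly differed, at 9491 a.u. in OM, 10529 in MB and 8196 in NM (log2 MB over OM 0.18). NRG1, which encodes the neuregulin ligand, went the opposite way to its receptor. Its brightest probe read 1298 a.u. in OM, 315 in MB and 1617 in NM, so that MB was 4.03-fold below OM and 5.73-fold below NM. Of its other probes, one gave a log2 ratio of MB to OM of -1.99, another -0.00, and the last was at background, so the difference was not seen by every NRG1 probe. EGFR, another partner, was highest on NM, at 596, 396 and 2062 a.u. (log2 NM over OM 1.98, MB over NM -2.54). NRG2 read 254, 345 and 146 a.u., and NRG4 and ERBB4 were at background on every array.

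**Figure D3:**
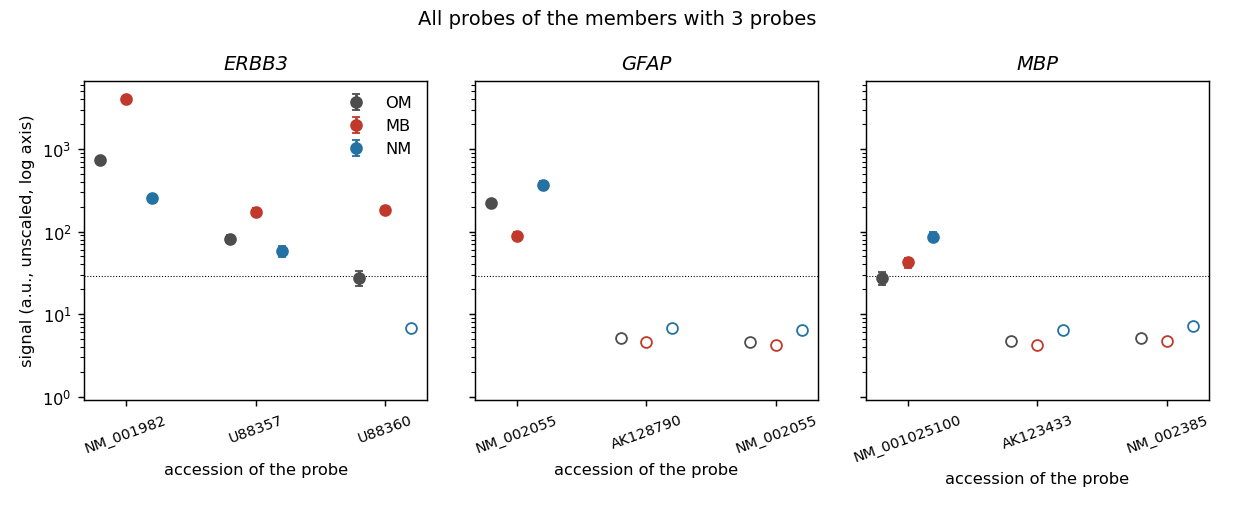
Unscaled signal (a.u., log axis) of every probe of ERBB3, GFAP and MBP on OM, MB and NM, with the scanner software's error. Filled points were well above background and open points were not, and the dotted line marks 29.1 a.u., the lowest signal well above background on NM. All ERBB3 probes are brightest on MB, whereas GFAP and MBP each have 1 probe above background and another 2 near 4 to 7 a.u. on all arrays.

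NGFR, the p75 neurotrophin receptor, marks neural crest stem cells and immature Schwann cells and is also found on melanoma cells. Its probe (chromosome 17, 44946977 to 44947036, plus strand) gave 123 ± 13.5 a.u. in OM, 346 ± 35.0 in MB and 525 ± 53.0 in NM. NGFR was higher in the bodies than in the original monolayer, and after the return to standard medium it was higher still. MB was 2.88-fold above OM (log2 1.52 ± 0.22) and NM 4.86-fold above OM (2.28 ± 0.22), and MB lay 1.69-fold below NM (-0.76 ± 0.21). In NM against OM 88 of 13055 genes were as high, NGFR included.

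Among the neurotrophins and other NGFR partners, NTRK3, the receptor of neurotrophin 3, was higher in MB, at 58.8 a.u. in OM, 264 in MB and 60.3 in NM, 4.58-fold above OM. Its other probe read 72.3, 106 and 25.7 a.u., a log2 ratio of MB to OM of 0.58. SORT1, the sortilin coreceptor that NGFR uses for pro-neurotrophins, read 1232, 2590 and 598 a.u. (log2 MB over OM 1.10, MB over NM 1.96). NTRK2, the receptor of BDNF, was at 48.0, 45.8 and 38.6 a.u. The ligand BDNF read 77.8, 93.7 and 43.8 a.u. MAGED1, an adaptor that binds NGFR, read 17355, 19110 and 8103 a.u. (log2 MB over NM 1.08), and RTN4R, with which NGFR forms a receptor for myelin inhibitors, 387, 235 and 426 a.u. (-1.01). Of 12 listed genes, all measured between MB and OM, 2 were 2-fold higher in MB and 0 lower, beside 6.61% and 4.11% of all genes, and none, in either direction, passed 2-fold between NM and OM among the 11 measured.

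NES encodes nestin, an intermediate filament protein of neural and neural crest progenitors. Its probe (chromosome 1, 153451914 to 153451973, minus strand) gave 62112 ± 6211 a.u. in OM, 95022 ± 9502 in MB and 17473 ± 1747 in NM. The new monolayer stood apart, below both other arrays. NES was 3.12-fold lower in NM than OM (log2 -1.64 ± 0.20) and 4.88-fold higher in MB than NM (2.29 ± 0.20), while MB exceeded OM by 1.57-fold (0.65 ± 0.20). In NM against OM 92 of 13055 genes, NES among them, had a ratio as low. The direction and the 2-fold calls of NES held under all 12 alternatives that give its ratio.

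GFAP, the filament protein of astrocytes and of non-myelinating and immature Schwann cells, ran against NES between MB and the monolayers. The brightest probe (chromosome 17, 40338530 to 40338589, minus strand) gave 222 ± 22.8 a.u. in OM, 89.5 ± 9.98 in MB and 371 ± 37.7 in NM. The MB signal was 2.43-fold below OM (log2 -1.28 ± 0.22) and 4.62-fold below NM (-2.21 ± 0.22), and NM was 1.90-fold above OM (0.93 ± 0.21). With normexp correction, the fall from OM to MB came to a log2 ratio of -0.90, under 2-fold, and without background subtraction to -0.94. The other GFAP probe of the same transcript accession (40338841 to 40338900) starts 311 bases away and gave 4.62, 4.26 and 6.39 a.u., which is at background throughout, and the probe of clone AK128790 (40342812 to 40342871) gave 5.17, 4.65 and 6.86 a.u. The GFAP values therefore rest on 1 of 3 probes, the one that holds AATAAA. Such a split was seen in 8.1% of the 3746 accessions with 2 probes of which at least 1 was well above background on all arrays.

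Vimentin, with which nestin assembles, did not follow NES: VIM was at 454704 a.u. in OM, 432154 in MB and 459227 in NM (log2 MB over OM -0.04, NM over OM 0.20). Among the other filament genes, NEFL, a neurofilament subunit, was lower in MB, at 1227, 288 and 675 a.u. (log2 MB over OM -2.06, MB over NM -1.38). PRPH, peripherin of peripheral neurons, read 61.6, 34.6 and 107 a.u. (log2 MB over NM -1.79), and SYNM, synemin, 10518, 12811 and 6093 a.u. (0.92). NEFH was at background throughout, and of the NEFM probes, that of NM_005382 was at background and the other read 116, 113 and 113 a.u.

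PMP22 is a membrane protein of compact myelin in peripheral nerve that many other cells also make. Its probe (chromosome 17, 15073933 to 15073992, minus strand) gave 67651 ± 6765 a.u. in OM, 58870 ± 5887 in MB and 71420 ± 7142 in NM. The ranges of these errors overlapped between neighbours. The log2 ratio was -0.17 ± 0.20 for MB over OM, 0.27 ± 0.20 for NM over OM and -0.43 ± 0.20 for MB over NM, at most 1.35-fold between a pair, where the median gene differed by 1.50-fold. In the PMP22 family, the brightest probes of EMP1 (log2 MB over OM 0.06), EMP2 (0.34) and EMP3 (0.75) also stayed within 2-fold in every comparison, though another EMP1 probe, of clone BC017854, read 1237, 871 and 231 a.u. and was 4.70-fold lower in NM than OM. LIM2, of the eye lens, was at background.

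MBP makes the basic proteins of the myelin sheath and, from a start further upstream, the Golli transcripts, which are also found outside myelin. The probe of transcript variant 8, a Golli transcript (NM_001025100, chromosome 18, 72853833 to 72853892, minus strand), gave 27.6 ± 5.10 a.u. in OM, 42.4 ± 5.84 in MB and 87.2 ± 10.6 in NM. These were low signals on all 3 arrays, with NM the highest. MBP was 3.60-fold higher in NM than OM (log2 1.85 ± 0.32) and 2.29-fold lower in MB than NM (-1.20 ± 0.26), and MB and OM differed by 0.65 ± 0.33. With normexp correction NM over OM came to 0.82 and without background subtraction to 0.97, both under 2-fold. The probe of NM_002385 (72825772 to 72825831), which the array lists for the classic myelin variants as well, lies 28061 bases downstream and gave 5.18, 4.70 and 7.13 a.u., and the probe of clone AK123433 (72828259 to 72828318) gave 4.72, 4.25 and 6.44 a.u. Neither was well above background on any array, so no classic MBP transcript was detected by these probes.

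Of the 15 other myelin genes listed, 12 could be measured between MB and OM, of which 3 were 2-fold or more higher in MB and 0 lower, beside 6.61% and 4.11% of all genes. GJB1, the connexin of Schwann cell myelin and of many epithelia, read 235 a.u. in OM, 2081 in MB and 60.1 in NM, so that it was, like ERBB3, highest on MB and lowest on NM (log2 MB over OM 3.18, NM over OM -1.78, MB over NM 4.96). MAL and MAG were well above background on MB alone, at 73.5 and 46.0 a.u., at least 3.60-fold and at least 2.24-fold higher than OM. GALC, a lysosomal enzyme of myelin lipids, read 3945, 3375 and 6701 a.u. (log2 MB over NM -1.15), and MPZL1, a membrane protein found in many tissues, 6781, 11162 and 4977 a.u. (1.01).

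FOXD3 acts in the premigratory neural crest and restrains the melanocyte fate. Its probe (chromosome 1, 63501903 to 63501962, plus strand, 85.0% G and C) gave 759 ± 76.0 a.u. in OM, 1073 ± 107 in MB and 697 ± 69.9 in NM. OM and NM did not differ beyond the error (log2 0.07 ± 0.20), and MB lay 1.45-fold above OM (0.53 ± 0.20) and 1.38-fold above NM (0.47 ± 0.20). A difference of this size was common, as 2911 of 13641 genes had a ratio of MB to OM at least as high.

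Transcription factors of the neural crest, listed beside FOXD3, were higher in MB than in OM by 2-fold or more in 6 of 16 genes and lower in 0, beside 6.61% and 4.11% of all genes. They were MSX2 (at least 6.02-fold), SOX8 (log2 1.92), SOX5 (1.88), TFAP2B (1.65), LMO4 (1.42) and ZIC1 (1.13). The probes of a gene did not always give the same result: a second SOX8 probe read 577, 390 and 707 a.u. (-0.53), a second MSX2 probe gave 0.71 and a second ZIC1 probe 0.04, while the other SOX5 probes gave 1.65 and 1.99. In NM against OM 0 of 15 were higher and 1, TFAP2B, lower. Of the 12 factors of the Schwann lineage, 4 were higher in MB than OM and 0 lower, beside the same shares. ID4 read 55.3 a.u. in OM, 1168 in MB and 71.1 in NM (log2 MB over OM 4.43) and SOX2, which keeps Schwann cells immature, 559, 7974 and 287 a.u. (3.87). EGR2, the master factor of myelination, was higher in both MB and NM than in OM, at 987, 2051 and 1965 a.u. (1.09 and 1.18), and EGR1 was highest on MB and lowest on NM (1.33 and -1.22). POU3F2, a factor of promyelinating Schwann cells, was lower in NM than OM (-1.12). SOX10, on which ERBB3 and GJB1 depend in Schwann cells, differed less, at 6254, 9382 and 4887 a.u. (log2 MB over OM 0.62, NM over OM -0.17).

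Genes of Schwann cell precursors and immature Schwann cells were higher in MB than in OM by 2-fold or more in 4 of 13 measured and lower in 0, beside 6.61% and 4.11% of all genes. CDH19, a cadherin of Schwann cell precursors, read 29.7 a.u. in OM, 481 in MB and 68.3 in NM (log2 MB over OM 4.05, NM over OM 1.39), though its second probe reached only 23.2 a.u. on MB and was at background on the other arrays. SEMA3B read 25625, 112568 and 28057 a.u. (2.17), CDH6 157, 402 and 37.8 a.u. (1.39, and NM over OM -1.87) and PLAT 73773, 144259 and 64257 a.u. (1.00). GAP43, of growing axons and non-myelinating Schwann cells, was 2-fold higher in NM than OM (1.13), and CADM4 was lower in NM than OM (-1.17). S100B, a classic protein of Schwann cells and melanoma, read 25155, 43760 and 13307 a.u. (0.83, and MB over NM 1.56). FABP7 was at background.

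Over the 94 genes of all these lists, 82 were measured between MB and OM, and 19 of them (23.2%) were 2-fold higher and 3 (3.66%) lower in MB, beside 6.61% and 4.11% of all genes, with a median log2 ratio of 0.33. Between NM and OM 5 of 75 (6.67%) were higher and 6 (8.0%) lower, beside 5.10% and 3.10% of all genes, with a median of 0.02. Between MB and NM 25 of 78 (32.1%) were higher in MB and 10 (12.8%) lower, beside 10.7% and 9.47% of all genes, with a median of 0.38. The lists were chosen with earlier results of these data known. They hold SOX2, ID4 and GJB1, which the paper reported as upregulated in MB from these same arrays. The shares therefore describe the lists and are no test of enrichment, and the counts of single lists above have the same limit. Of the genes higher in MB than in OM, 6 were neural crest factors, 4 Schwann lineage factors, 4 precursor genes, 3 myelin genes and 2 NGFR partners. The lists around LGI4, PMP22 and ERBB3 and the list of filament genes held 0.

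**Figure D4:**
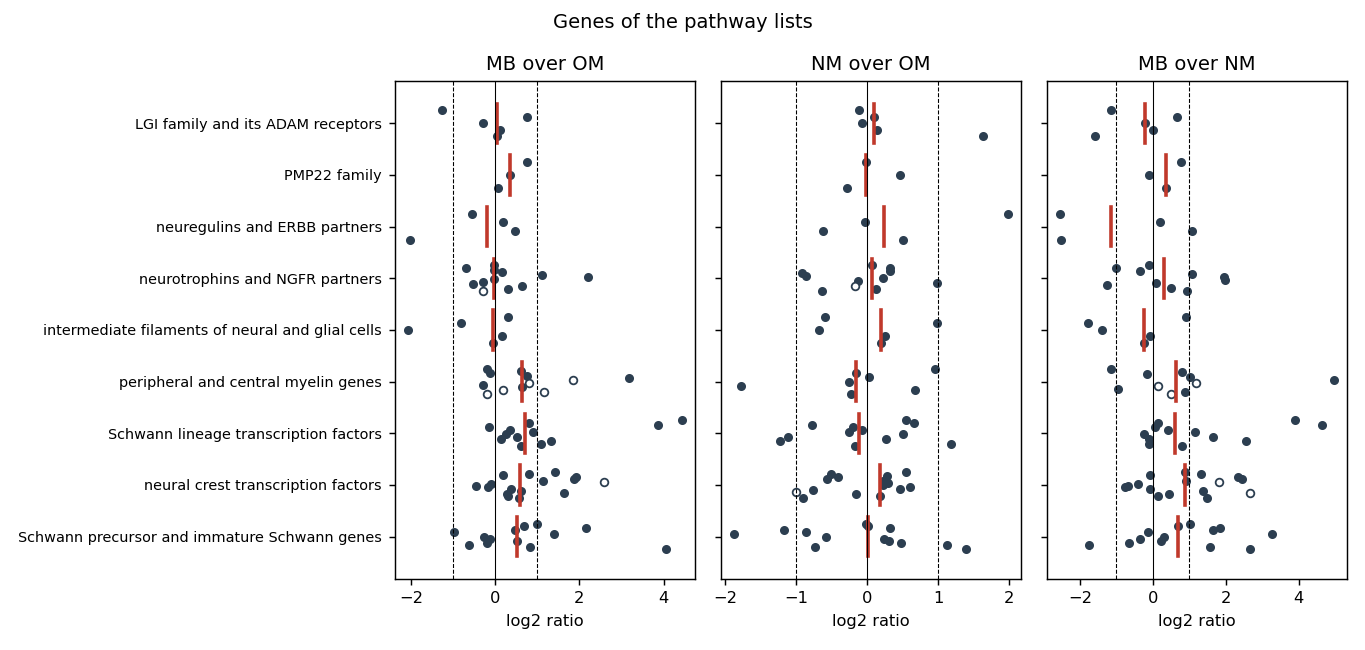
Log2 ratio of every measured gene of the 9 lists for MB over OM, NM over OM and MB over NM, 1 point per gene, with open points for bounds, red bars for the median of each list and dashed lines at 2-fold. The x axis differs between panels. Against OM, the MB points reach furthest to the right in the transcription factor, myelin and precursor lists.

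By the distance between the pairs of log2 ratios of MB and NM to OM, a measure over 3 arrays that share OM, the genes most like each of the 6 members that differed 2-fold between a pair of arrays, among the 12465, were as follows. For LGI4 they were ANO1, MSMO1 and RAB11FIP4, at distances of 0.12 to 0.26. For ERBB3 they were HR, SLCO4A1 and KRT9, at 0.28 to 0.41. For NGFR they were IGF2-AS, ITPKA and ATP8B3 (0.27 to 0.33), for NES SHROOM2, RAMP1 and SPMIP6 (0.07 to 0.11), for GFAP MBNL2, ELOVL7 and PPP1R14C (0.05 to 0.07), and for MBP FBLN7, PTPRM and MYORG (0.03 to 0.10).

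SOX10, S100B, CSPG4 and S100A1 were well above background on all arrays, as were MITF, PMEL and DCT, while TYR and TYRP1, enzymes of pigment synthesis, were at background. The measured genes of this melanoma list had a median log2 ratio of MB to OM of 0.71, with S100A1 2.21-fold and CSPG4 1.86-fold higher in MB, and in 3 of 8 the MB level exceeded that of NM by 2-fold or more. PMEL (log2 MB over OM -0.42) and DCT (-0.05) were not higher in MB than OM, while the other measured genes of the list were. COL1A1, COL1A2, COL3A1 and LUM of fibroblasts, KRT5, CDH1 and EPCAM of epithelia and CDH5, PTPRC and HBB of vessels and blood were at background on every array. PECAM1 was above background on MB alone, at 87.7 a.u., and VWF was also highest on MB, at 185, 390 and 95.6 a.u., 2.15-fold above OM and 3.66-fold above NM. CD68 was 2.67-fold lower in MB than OM. In all, 4 of 8 fibroblast, 3 of 6 epithelial and 3 of 6 vessel and blood markers were well above background on an array, and their summed signals in OM, MB and NM were 7754, 13032 and 6894 a.u., 16329, 13330 and 6458 a.u. and 4928, 2235 and 5073 a.u. The sums rest mostly on PDGFRA, PDGFRB, KRT18 and CD68, which are not specific to these cells. The part of these cells in the differences of the members was not tested beyond these values.

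Across the settings of the processing, the 13 member ratios that passed 2-fold kept their direction under all alternatives that give them, and 9 of the 13 stayed past 2-fold under all. The other four were NM over OM of ERBB3 and MBP, MB over OM of GFAP and MB over NM of MBP.

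**Figure D5:**
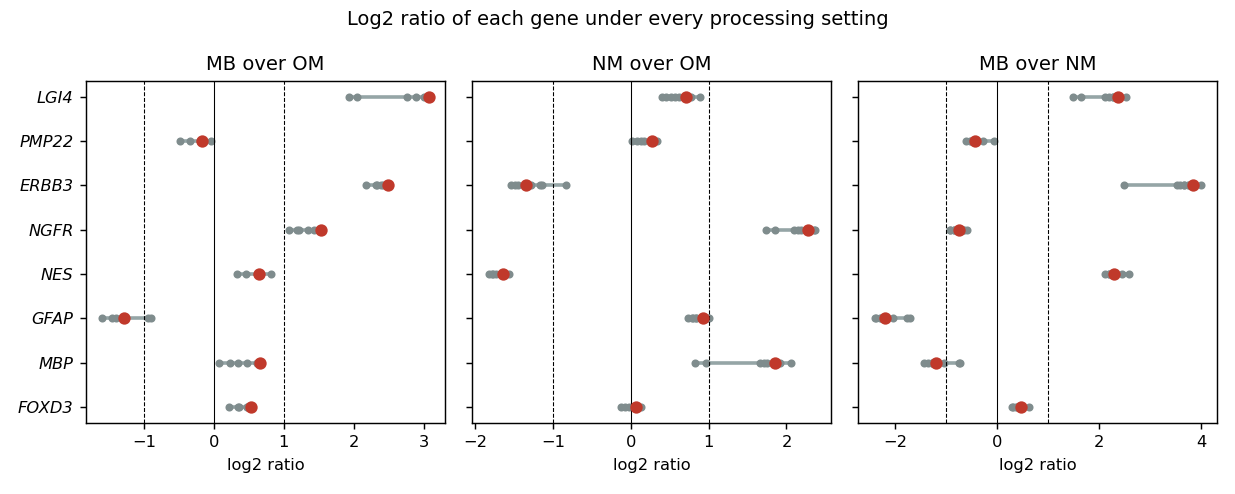
Log2 ratio of each member as reported (red) and under each alternative setting (grey) for the 3 comparisons, with dashed lines at 2-fold. The grey points of LGI4 in MB over OM and of MBP in NM over OM that lie furthest left are those with normexp correction and without background subtraction.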

How the data were processed

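The authors deposited, per array, the intensity of each spot from Agilent Feature Extraction 9.5.3.1 (per the file headers), in a.u. on a linear scale. Tested on the files, a fitted surface had been subtracted from 100.0% of spots within 1%, the result divided by a multiplicative detrend, and low values replaced by a surrogate; no local background was subtracted and arrays were not scaled to each other. All arrays lie on 1 slide.

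Control and outlier spots were left out and the spots of a probe averaged. A ratio was used where the brighter array was well above background. Where the dimmer was not, it was set to the higher of its own signal and the lowest signal well above background on that array, and the fold is a lower bound (no fold where that came under 1). The members and lists were chosen with earlier results of these data known. Genes named from the lists are the direct partners and up to 4 genes per list and comparison that passed 2-fold with the largest ratios, and a few of the others are named to complete a list. Positions are those of the array files in hg17, and current symbols came from a GRCh38.p14 table. Exon or UTR positions of the probes were not analysed here. Python 3.11.15 (pandas 2.3.3, numpy 2.4.6), R 4.3.3 with limma 3.58.1 (normexp, offset 50) and matplotlib 3.10.9 were used, and the calls were tested on simulated data. The alternatives were other scalings, background corrections, filters and probe rules, and the series value table, which held the same intensities. Some genes of the lists are not reported here by name.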

Additional observations from a re-analysis of the deposited data

How the results depend on the processing

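No paired analysis was possible, because each condition has a single array, and for the same reason no replicate could be left out. The slide is the same for all arrays and could not serve as a block. Of 11 member ratios under 2-fold, 10 stayed so under all alternatives. GFAP in NM over OM passed with quantile normalization (log2 1.01). FOXD3 in NM over OM was the 1 ratio of the 11 whose sign changed (-0.12 without scaling, -0.03 with 75th percentile and -0.07 with spike-in scaling).

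With normexp correction and without background subtraction alike, the count of members 2-fold higher in NM than OM was 1 (2 as reported), lower in MB than NM 1 (2), lower in MB than OM 0 (1), and past 5-fold 1 (2), as LGI4 no longer passed. With the median over probes, 1 member (2) was lower in NM than OM. Past 5-fold were 5 members with quantile normalization (GFAP, NES and NGFR added), and 3 without scaling, with spike-in scaling (7 probes) or with the geometric mean of the housekeeping genes, which is within 1.5 times the count reported. The members' median minus that of all genes was 0.51 for MB over OM as reported, 0.68 with quantile normalization, 0.58 with no filter on dim signals, 0.45 with normexp and 0.44 without background subtraction. For NM over OM it was 0.38, with 0.26 under normexp and 0.23 without background subtraction, and for MB over NM -0.03, with 0.13 under quantile normalization and 0.085 with no filter. Spike-in scaling moved the median of all genes for MB over OM from 0.14 to -0.18, and 75th percentile scaling to -0.04. Counting any probe of a gene gives no single ratio and so no median.

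For the lists, alternatives chosen after seeing the data changed 3 counts: genes higher in NM than OM were 8 with the geometric mean and 3 without scaling (5), lower in NM than OM 10 without scaling, 3 without background subtraction and 2 with normexp (6), and lower in MB than OM 5 with spike-in scaling (3). Counted by comparison, also after seeing the data, members past 5-fold between MB and OM were 1 (2) with 75th percentile and spike-in scaling, where ERBB3 dropped out, and with normexp and without background subtraction, where LGI4 did. Between MB and NM there was 1 (2) with 75th percentile scaling, the geometric mean, normexp and no background subtraction, without LGI4, which also missed 5-fold with quantile normalization and spike-in scaling. Between NM and OM there was 1 (0), NGFR, with quantile normalization and the geometric mean. The other counts of members and lists stayed within 1.5 times. The cause was not tested for any of these. Signals under 100 a.u., such as LGI4 and MBP in the monolayers, limit what can be said of their folds.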
